A study of Mus musculus with 5 samples.

Results

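The collagen genes were taken as every row of the count table whose symbol is Col, a number, the letter a and a number. The rule found 44 genes among 27919 rows with a gene symbol. Polyadenylated RNA was sequenced from the untreated forebrain of C57BL/6 mouse embryos at E12.5, from 3 EedcKO samples and 2 wild-type samples that the submitters call littermates. Eed is a core subunit of Polycomb repressive complex 2, which methylates histone H3 and keeps developmental genes silent. EedcKO is the submitters' name for the conditional mutant, and the sources used here name neither its Cre driver nor the deleted part of Eed. The labels do not tie each sample to its own embryo or litter. The p-values thus reflect only how far these 5 samples vary, which may be in part technical.

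Collagens are matrix proteins whose chains, made by the same gene or by related genes, wind into a triple helix. Fibrillar collagens build the cables of connective tissue, type IV collagens build the sheets of basement membranes, and the FACIT collagens (fibril-associated collagens with interrupted triple helices) sit on fibrils made by others. In the embryonic head, fibrillar and beaded filament collagens are made mainly by fibroblasts of the meninges and of the mesenchyme around the brain. Type IV collagens are made by vessel walls and at the pial surface, where the end feet of radial glia attach. Dissected forebrain therefore holds collagen RNA from tissue on and in the brain as well as from neural cells.

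Counts with a gene symbol summed to 4723794 to 4922228 per library. The forebrain label was checked on Emx2 and Sox2, transcription factors of the embryonic forebrain and of neural progenitors. Emx2 stood at 83.7 CPM in wild type 1, 137 CPM in the library labelled wild type 2, and 113, 110.2 and 130.1 CPM in EedcKO 1, 2 and 3 (CPM are counts relative to library size, corrected by TMM factors). Sox2 stood at 206 CPM in wild type 1, 203 CPM in the library labelled wild type 2, and 189.6, 193 and 204 CPM in EedcKO 1, 2 and 3. Both were present in every library. Pax6 and Tbr1, both cortical transcription factors, were higher in EedcKO. Eed itself had 404 counts in wild type 1, but 238 in the library labelled wild type 2, against 233 to 251 in EedcKO. That library goes against its label by this count, which can include exons outside the deleted part. Over the genes with enough counts to compare, its counts were closer to wild type 1 (chi-square per gene 8.44) than to the EedcKO libraries (9.31 to 10.3), while wild type 1 was closest to EedcKO 1 (8.16). The EedcKO libraries were at 2.62 to 4.82 from each other. Every direction below is drawn with the library in the wild-type group. By Xist and Y-linked counts EedcKO 2 and EedcKO 3 were male and the other libraries female.

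The promoters of 4 collagen genes are shown first, because the results turn on them: Col4a1 and Col4a2, the highest collagens, start at opposite strands of the same short stretch, and Col19a1 and Col6a5 are the 2 collagens that passed the test. Each run holds 250 bases before and 50 bases after the RefSeq transcription start (GRCm38.p6, the mm10 assembly), written 5′ to 3′ on the gene's own strand. Capitals mark matches, searched on both strands, to the TATA box letters TATAAA, to the CCAAT box letters CCAAT and to the GC box letters GGGCGG. Matches to different boxes can share at most 2 bases.
Col4a1 promoter, chr8:11312777-11313076, minus strand: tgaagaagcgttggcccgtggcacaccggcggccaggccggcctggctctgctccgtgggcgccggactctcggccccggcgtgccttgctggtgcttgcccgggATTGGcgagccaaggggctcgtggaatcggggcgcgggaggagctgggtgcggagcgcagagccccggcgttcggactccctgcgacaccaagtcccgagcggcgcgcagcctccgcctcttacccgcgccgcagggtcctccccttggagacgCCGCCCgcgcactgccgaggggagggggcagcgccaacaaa
Col4a2 promoter, chr8:11312555-11312854, plus strand: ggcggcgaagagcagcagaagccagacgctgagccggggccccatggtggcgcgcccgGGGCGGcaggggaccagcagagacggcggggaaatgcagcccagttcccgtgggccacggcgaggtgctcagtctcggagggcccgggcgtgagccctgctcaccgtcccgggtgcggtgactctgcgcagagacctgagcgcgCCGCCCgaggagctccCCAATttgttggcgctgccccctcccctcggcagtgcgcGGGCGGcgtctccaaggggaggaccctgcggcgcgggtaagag
Col19a1 promoter, chr1:24587388-24587687, minus strand: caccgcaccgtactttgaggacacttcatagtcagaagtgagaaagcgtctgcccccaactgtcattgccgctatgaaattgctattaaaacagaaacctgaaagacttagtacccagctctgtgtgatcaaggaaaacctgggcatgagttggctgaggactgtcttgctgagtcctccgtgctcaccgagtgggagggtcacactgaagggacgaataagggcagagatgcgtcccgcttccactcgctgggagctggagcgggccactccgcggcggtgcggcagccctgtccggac
Col6a5 promoter, chr9:105960594-105960893, minus strand: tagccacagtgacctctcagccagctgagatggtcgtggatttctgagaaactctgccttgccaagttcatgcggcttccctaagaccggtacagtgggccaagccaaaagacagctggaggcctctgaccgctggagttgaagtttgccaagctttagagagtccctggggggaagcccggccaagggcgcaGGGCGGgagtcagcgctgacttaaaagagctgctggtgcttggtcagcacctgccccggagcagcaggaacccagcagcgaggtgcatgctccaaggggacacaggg
The annotated starts of Col4a1 and Col4a2 lie 21 bases apart on opposite strands, and their windows share 78 bases. Both windows are rich in CpG, with 37 CpG dinucleotides in that of Col4a1 and 33 in that of Col4a2, against a median of 7 over all 32851 RefSeq promoter windows. The Col19a1 window holds 16 CpG dinucleotides and none of the searched letters, and the Col6a5 window holds 10 and 1 GGGCGG. RefSeq windows were matched for 35 of the 44 collagens (38 windows). GGGCGG occurred in 23 of these windows (60.5%) and in 35.7% of all windows. Their median GC content was also higher, at 59.8% against 52.7% of all windows. Windows with at least 50% GC and an observed to expected CpG ratio of at least 0.6 made up 28.9% of the collagen windows and 33.5% of all. CCAAT occurred in 13 (34.2%, against 37.4% of all) and TATAAA in 5 (13.2%, against 13.6%). A match is a description of the letters, not a binding site.

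All 44 collagens had at least 1 count. Their sum was 1846 CPM in wild type 1, 2028 CPM in the library labelled wild type 2, and 2388, 1696 and 2231 CPM in EedcKO 1, 2 and 3, so that the libraries differed by 1.41-fold, with EedcKO 1 highest and EedcKO 2 lowest and the groups overlapping. By TPM (a share of all transcripts that corrects for gene length), the highest mean levels over the 5 libraries were those of Col4a1 (186 TPM), Col4a2 (149.9 TPM), Col2a1 (118 TPM), Col3a1 (103 TPM) and Col1a1 (94.96 TPM). Of the 44 genes, 28 had a mean of at least 5 CPM and 16 less.

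**Figure D1:**
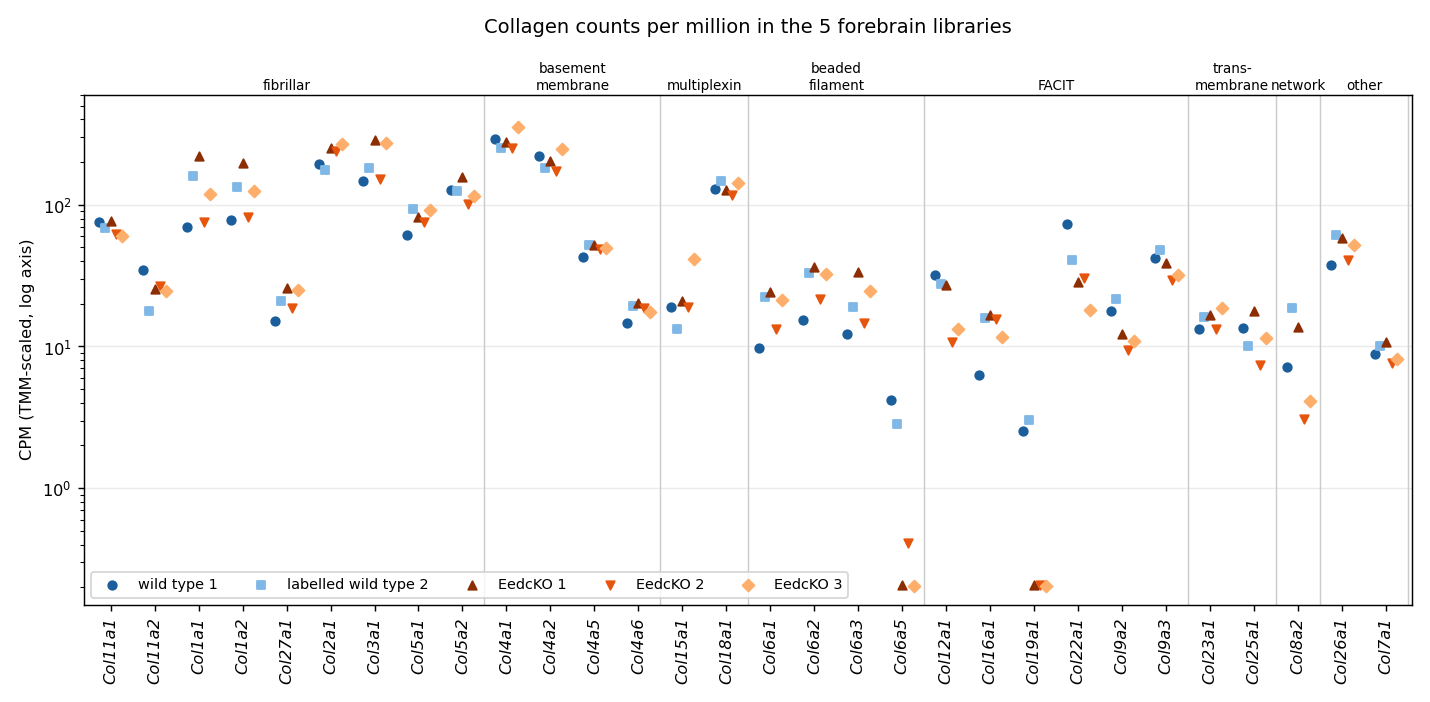
Level of each named collagen in CPM (log axis) in each library, grouped by structural class, with 1 point per library. Spread between libraries of 1 group is wide for Col1a1, Col1a2 and the Col6 genes and narrow for Col4a5 and Col18a1, and Col19a1 and Col6a5 sit at 1 or 2 counts in the EedcKO libraries.

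In EedcKO, 2 collagens passed the test, both lower: the FACIT gene Col19a1 and the type VI gene Col6a5. With edgeR's quasi-likelihood test over all 13989 genes tested and an adjusted p under 0.05, 35 collagens had enough counts to be tested and 2 passed (5.71%), against 3.20% of all genes tested (2.17% lower and 1.04% higher). At 2 genes this count is near the background. At an unadjusted p under 0.05 there were 6 of 35, against 17.2% of all genes tested. The median log2 fold change of the 35 was 0.027, and that of all genes tested was 0.0074. Counting all 44 members, the EedcKO libraries lay wholly below both wild-type libraries in 9 and wholly above in 1. Of the 35 tested collagens, 7 lay wholly below and 1 wholly above, so that the groups did not overlap in 8 (22.9%). Among all genes tested the groups did not overlap in 33.8%, with 17.4% wholly below and 16.4% wholly above. Col19a1 and Col6a5 entered the test through their wild-type counts alone, so a decrease was the only direction open to them. With embryo sex as a term in edgeR, 0 collagens and 0 of all genes passed (5 collagens had an unadjusted p under 0.05). In limma on log2 of TPM 0 collagens passed (6 or 7 had an unadjusted p under 0.05), against 174 to 291 of all genes. DESeq2 called 4 collagens and 679 of all genes. Male libraries occur only in EedcKO, so with the sex term the genotype effect rests on EedcKO 1 against the wild-type libraries. That fit therefore cannot separate sex from genotype. Without wild type 1, 5 collagens and 1012 of all genes passed. Without the library labelled wild type 2 there were 2 collagens and 882 genes, without EedcKO 1 there were 1 and 262, and without EedcKO 2 there were 0 and 84. Without EedcKO 3 no gene passed at all (0 of all genes with edgeR, 1886 at an unadjusted p under 0.05).

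**Figure D2:**
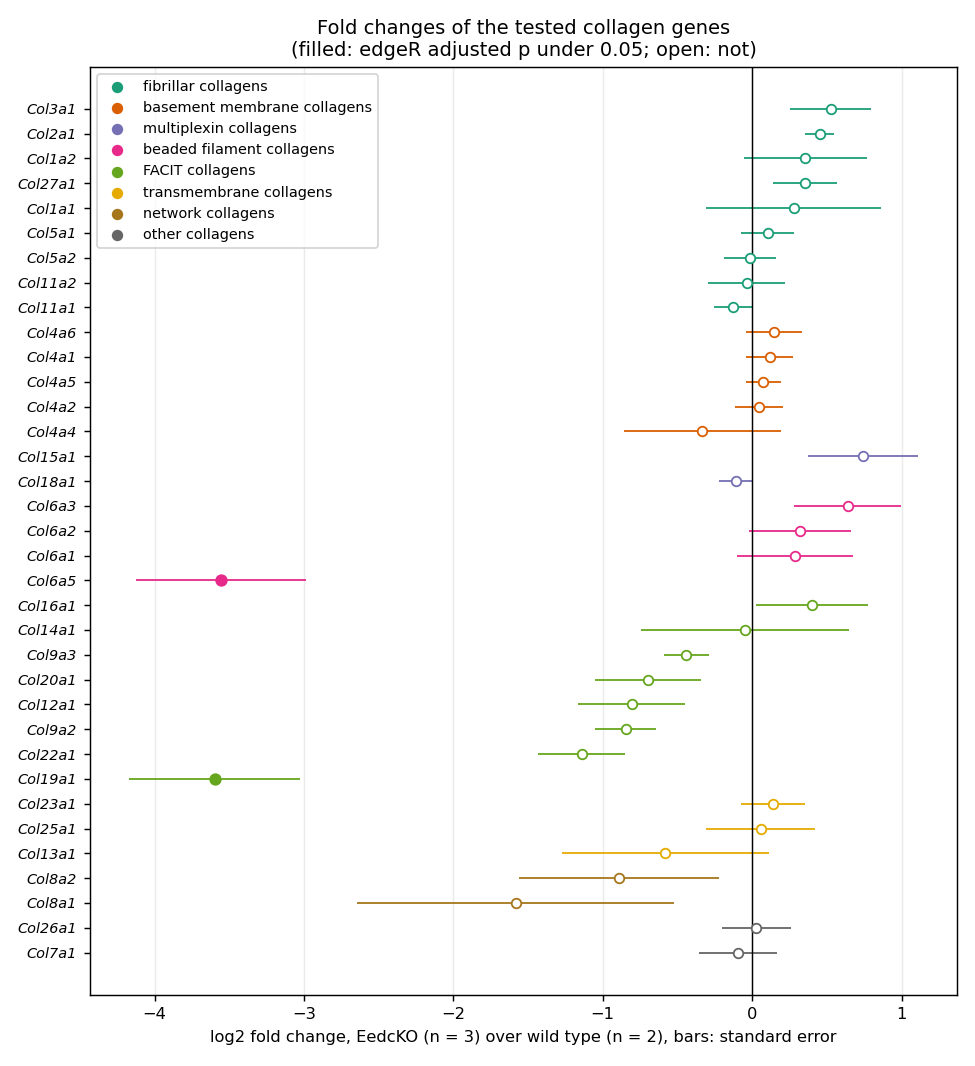
Log2 fold change of EedcKO (n = 3) over wild type (n = 2) for the 35 tested collagens, with bars of 1 standard error from edgeR and colours by class. Filled points are the 2 genes past the threshold (Col19a1 at -3.60 and Col6a5 at -3.56), and Col2a1 lies above 0 at 0.45.

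Type I collagen differed more between libraries of the same genotype than between genotypes. Col1a1, the main chain of type I collagen (chromosome 11, 94936224 to 94953042, plus strand, mm10), stood at 69.2 CPM in wild type 1, 158 CPM in the library labelled wild type 2, and 219.6, 75.8 and 119 CPM in EedcKO 1, 2 and 3. Col1a2, the second chain of that trimer (chromosome 6, 4504814 to 4541544, plus strand), stood at 77.6 CPM in wild type 1, 133 CPM in the library labelled wild type 2, and 197, 82.4 and 125 CPM in EedcKO 1, 2 and 3. In both genes EedcKO 1 was highest and wild type 1 lowest, EedcKO 2 lay just above wild type 1, and the groups overlapped. The means of Col1a1 were 114 ± 63.1 CPM in wild type (SD, n = 2) and 138 ± 73.7 CPM in EedcKO (SD, n = 3) (log2 fold change 0.28 with SE 0.59 and edgeR adjusted p = 0.875). Col1a2 did not pass either (log2 fold change 0.36 with SE 0.41 and edgeR adjusted p = 0.747). The sign of the Col1a1 fold change turned without wild type 1 and without EedcKO 1, and that of Col1a2 without EedcKO 1.

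Col3a1 encodes type III collagen, which joins type I fibrils in the meninges and is the ligand of the receptor Adgrg1 at the pial surface of the developing cortex (chromosome 1, 45311538 to 45349706, plus strand). It stood at 148 CPM in wild type 1, 181 CPM in the library labelled wild type 2, and 288, 152 and 272 CPM in EedcKO 1, 2 and 3. EedcKO 1 and EedcKO 3 were well above the other libraries, while EedcKO 2 lay between the wild-type values (log2 fold change 0.53 with SE 0.27 and edgeR adjusted p = 0.390). Its neighbour Col5a2, 24614 bases away and a chain of the type V collagen that starts type I fibrils, had a smaller range. It stood at 128 CPM in wild type 1, 125 CPM in the library labelled wild type 2, and 157, 101 and 116 CPM in EedcKO 1, 2 and 3, with the highest value in EedcKO 1 and the lowest in EedcKO 2. Col5a1, the other main chain of type V, stood at 61.6 CPM in wild type 1, 93.5 CPM in the library labelled wild type 2, and 82.3, 75.5 and 92.5 CPM in EedcKO 1, 2 and 3. There wild type 1 was lowest and the library labelled wild type 2 highest. Neither passed (log2 fold change -0.017 (SE 0.17) for Col5a2 and 0.10 (SE 0.18) for Col5a1, edgeR adjusted p = 0.979 and 0.833).

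Col2a1, the chain of type II collagen, the fibril of cartilage, was higher in each EedcKO library than in both wild-type libraries, but missed the threshold. It stood at 194 CPM in wild type 1, 175 CPM in the library labelled wild type 2, and 251, 240.5 and 267 CPM in EedcKO 1, 2 and 3 (chromosome 15, 97975602 to 98004695, minus strand). These are means of 185 ± 13.3 CPM in wild type (SD, n = 2) and 253 ± 13.3 CPM in EedcKO (SD, n = 3) (log2 fold change 0.45 with SE 0.096 and edgeR adjusted p = 0.0523). Its adjusted p ranged from 0.00421 to 0.339 over 16 alternatives, 5 of which called it higher, and its log2 fold change kept its sign in all of them. Of the 22 mesenchyme and cartilage markers 11 were tested and 9 had under 10 counts in every library, among them the following 3. These 3 were chosen after their values were seen, and Hapln1, another cartilage gene of the list, was not among the 9. Matn1, a cartilage matrilin, had 0 counts in wild type 1, then 0, 0 and 1 for EedcKO 1, 2 and 3, with 0 in the library labelled wild type 2. Acan, the cartilage proteoglycan aggrecan, had 6 counts in wild type 1, then 5, 7 and 8 for EedcKO 1, 2 and 3, with 2 in the library labelled wild type 2, and Snorc, a chondrocyte membrane proteoglycan, had 0 counts in all 5 libraries. The part of cartilage or of other tissue in the Col2a1 values was not tested.

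The remaining fibrillar genes that cartilage also uses did not share the order of Col2a1. Col11a1, a chain of type XI collagen, stood at 75.1 CPM in wild type 1, 69.0 CPM in the library labelled wild type 2, and 76.5, 61.7 and 59.9 CPM in EedcKO 1, 2 and 3. Col11a2, another chain of it, stood at 34.9 CPM in wild type 1, 17.8 CPM in the library labelled wild type 2, and 25.6, 26.8 and 24.5 CPM in EedcKO 1, 2 and 3. The 5 libraries were close to each other in Col11a1, while in Col11a2 the extremes were wild type 1 at the top and the library labelled wild type 2 at the bottom. Col27a1, a minor fibrillar collagen of cartilage, stood at 15.1 CPM in wild type 1, 21.1 CPM in the library labelled wild type 2, and 25.8, 18.8 and 25.0 CPM in EedcKO 1, 2 and 3, lowest in wild type 1. Their log2 fold changes were -0.13 (SE 0.13), -0.037 (SE 0.26) and 0.35 (SE 0.22), and none passed (edgeR adjusted p = 0.704, 0.967 and 0.475). Of the 9 tested fibrillar genes 0 passed with edgeR, 1 (Col2a1) had an unadjusted p under 0.05, and DESeq2 called Col2a1. Col24a1 and Col5a3 had 5 to 14 and 0 to 9 counts per library and were not tested.

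Type VI collagen, which forms beaded filaments around fibroblasts and vessels, shared much of the order of type I collagen. Col6a1 stood at 9.67 CPM in wild type 1, 22.3 CPM in the library labelled wild type 2, and 24.2, 13.2 and 21.3 CPM in EedcKO 1, 2 and 3. Col6a2, 85161 bases from it on chromosome 10, stood at 15.4 CPM in wild type 1, 33.1 CPM in the library labelled wild type 2, and 36.7, 21.7 and 32.5 CPM in EedcKO 1, 2 and 3. Col6a3 on chromosome 1, which completes the main trimer, stood at 12.2 CPM in wild type 1, 18.9 CPM in the library labelled wild type 2, and 33.5, 14.7 and 24.5 CPM in EedcKO 1, 2 and 3. In these 3 genes, as in Col1a1, Col1a2 and Col3a1, wild type 1 was lowest and EedcKO 1 highest. Their log2 fold changes were 0.29 (SE 0.39), 0.32 (SE 0.34) and 0.64 (SE 0.36) (edgeR adjusted p = 0.784, 0.720 and 0.434), and without wild type 1 those of Col6a1 and Col6a2 turned negative. Summed over these 6 genes of types I, III and VI, a group put together after their values were seen, the level was 332 CPM in wild type 1, 547 CPM in the library labelled wild type 2, and 799, 359 and 595 CPM in EedcKO 1, 2 and 3, a 2.41-fold range with overlapping groups.

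Markers of the tissues that make these collagens were compared over the same libraries. The meninges list (20 genes, all tested) had 1 gene higher and 1 lower in EedcKO with edgeR (3.20% of all genes tested passed), 8 at an unadjusted p under 0.05 (17.2% of all genes tested), and 3 called by DESeq2. It summed to 1023 CPM in wild type 1, 984 CPM in the library labelled wild type 2, and 911, 739 and 754 CPM in EedcKO 1, 2 and 3, an order unlike that of type I collagen. Its 2 called genes are also made by neural cells: Alcam, a cell adhesion molecule (log2 fold change 1.17 with SE 0.094 and edgeR adjusted p = 0.00455), and the transcription factor Nr2f2 (log2 fold change -1.67 with SE 0.20 and edgeR adjusted p = 0.0112). These other genes of the list were chosen after their values were seen. Lum, a small proteoglycan of collagen fibrils and a marker of meningeal fibroblasts, stood at 21.7 CPM in wild type 1, 28.0 CPM in the library labelled wild type 2, and 53.7, 29.5 and 35.8 CPM in EedcKO 1, 2 and 3. Dcn, a related proteoglycan, stood at 17.0 CPM in wild type 1, 25.8 CPM in the library labelled wild type 2, and 34.2, 19.6 and 20.7 CPM in EedcKO 1, 2 and 3. Both were highest in EedcKO 1 and lowest in wild type 1. Over the whole list, however, EedcKO 1 was the highest library in 6 of 20 genes, against 20.1% of all genes tested. The library labelled wild type 2 was the highest in 7, against 23.3%, and wild type 1 the lowest in 6, against 23.1%. Foxc1, a transcription factor of the meninges, stood at 13.7 CPM in wild type 1, 18.1 CPM in the library labelled wild type 2, and 17.1, 18.0 and 15.1 CPM in EedcKO 1, 2 and 3, a narrower range with the lowest value again in wild type 1. No gene of the meninges list was at 0 in all libraries. The list of cranial mesenchyme and cartilage (22 genes, 11 tested, 0 called with edgeR, 1 at an unadjusted p under 0.05 and 1 called by DESeq2) summed to 78.2 CPM in wild type 1, 218 CPM in the library labelled wild type 2, and 182, 136 and 141 CPM in EedcKO 1, 2 and 3, lowest in wild type 1 and highest in the library labelled wild type 2. Its most abundant gene, the mesenchymal factor Prrx1, stood at 36.2 CPM in wild type 1, 59.0 CPM in the library labelled wild type 2, and 91.9, 69.8 and 76.1 CPM in EedcKO 1, 2 and 3. Each EedcKO library was above both wild-type libraries (log2 fold change 0.73 with SE 0.21 and edgeR adjusted p = 0.1297), and it was the gene DESeq2 called. The part of these markers in the collagen values was not tested. In bulk tissue fewer cells of a type and less RNA per cell cannot be told apart.

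**Figure D3:**
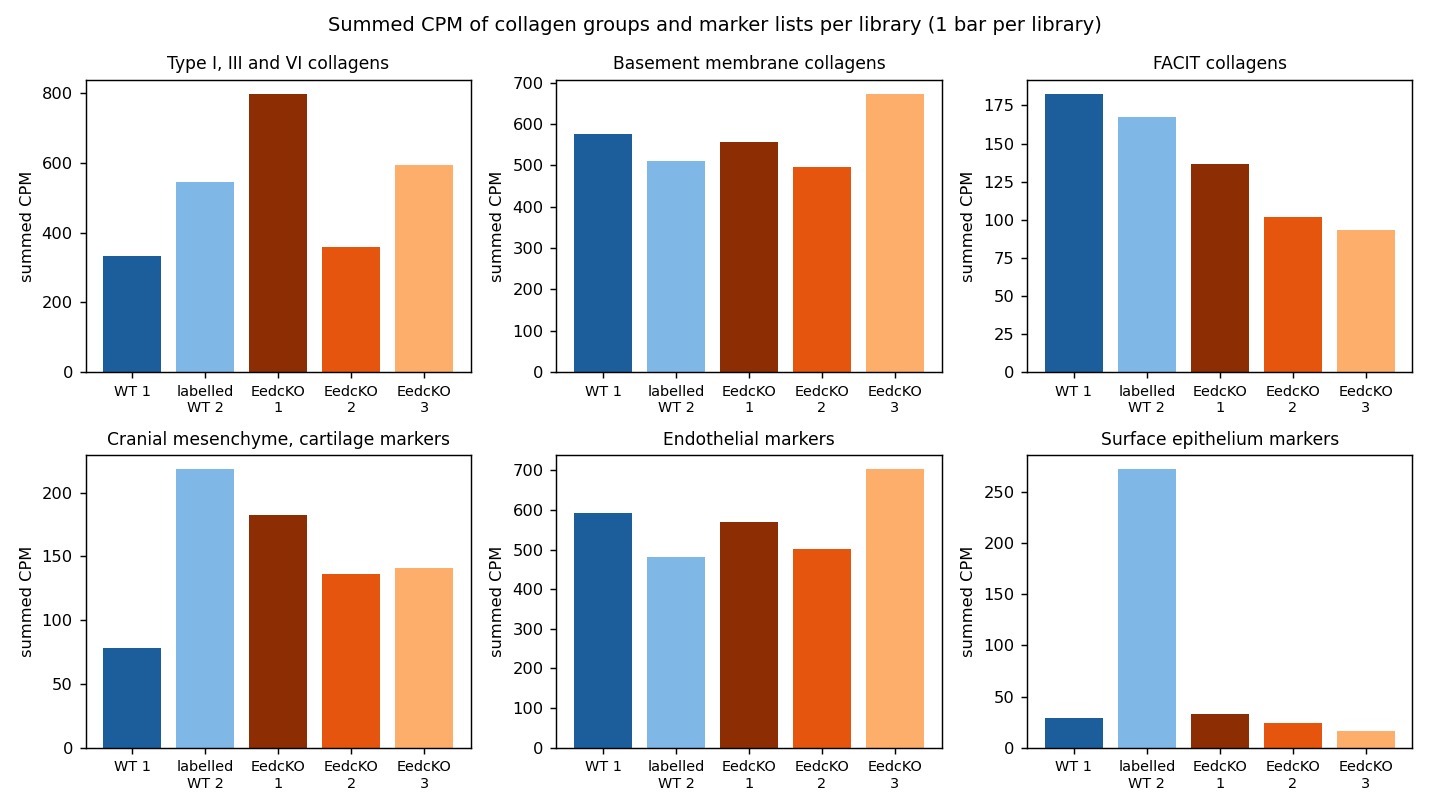
Summed CPM per library (1 bar each, axis from 0) of 3 groups of collagens in the upper row and of 3 marker lists in the lower row. Type I, III and VI collagens run from 332 CPM in wild type 1 to 799 CPM in EedcKO 1, basement membrane collagens and endothelial markers are both highest in EedcKO 3, and surface epithelium markers stand out in the library labelled wild type 2.

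Basement membrane collagens differed little between libraries. Their sum was 577 CPM in wild type 1, 509.9 CPM in the library labelled wild type 2, and 556, 496 and 674 CPM in EedcKO 1, 2 and 3, a 1.36-fold range. Col4a1 (chromosome 8, 11198423 to 11312826, minus strand) stood at 293 CPM in wild type 1, 252 CPM in the library labelled wild type 2, and 278, 253 and 356 CPM in EedcKO 1, 2 and 3. Col4a2 (chromosome 8, 11312805 to 11449287, plus strand), whose promoter windows with Col4a1 are printed above, stood at 220.0 CPM in wild type 1, 183 CPM in the library labelled wild type 2, and 202, 172 and 248 CPM in EedcKO 1, 2 and 3. EedcKO 3 was highest and wild type 1 second in both genes, and the groups overlapped. The log2 fold changes were 0.12 (SE 0.16) and 0.043 (SE 0.16), with edgeR adjusted p = 0.778 and 0.932, and both turned negative without EedcKO 3, as Col4a2 did without the library labelled wild type 2. These chains form the main type IV trimer from 2 copies of Col4a1 and 1 of Col4a2. The ratio of Col4a1 to Col4a2 in TPM was 1.18 in wild type 1, then 1.22, 1.31 and 1.27 for EedcKO 1, 2 and 3, with 1.22 in the library labelled wild type 2. It moved by 1.11-fold between libraries, less than either gene (1.41-fold for Col4a1 and 1.44-fold for Col4a2 in CPM).

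The X-linked pair Col4a5 and Col4a6, chains of basement membranes of kidney, skin and smooth muscle, did not pass. Col4a5 stood at 42.7 CPM in wild type 1, 51.9 CPM in the library labelled wild type 2, and 51.9, 48.5 and 49.3 CPM in EedcKO 1, 2 and 3. Col4a6 stood at 14.7 CPM in wild type 1, 19.3 CPM in the library labelled wild type 2, and 20.4, 18.6 and 17.4 CPM in EedcKO 1, 2 and 3. In both genes wild type 1 was lowest, and the other 4 libraries lay within a narrow band that held male and female embryos alike. The log2 fold changes were 0.076 (SE 0.12) and 0.14 (SE 0.19) (edgeR adjusted p = 0.816 and 0.775). Col4a4, a chain of the glomerular trimer of the kidney, had 26 counts in wild type 1, then 19, 15 and 9 for EedcKO 1, 2 and 3, with 10 in the library labelled wild type 2 and did not pass (log2 fold change -0.33 with SE 0.53 and edgeR adjusted p = 0.818). Its partner Col4a3 had 6 counts in wild type 1, then 0, 3 and 3 for EedcKO 1, 2 and 3, with 7 in the library labelled wild type 2, too few to test. Of the 5 tested type IV genes 0 passed with edgeR and with DESeq2, and 0 had an unadjusted p under 0.05.

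Multiplexin collagens, which link basement membranes to the matrix around them, parted from each other. Col15a1, found in the walls of small vessels (chromosome 4, 47208161 to 47313167, plus strand), stood at 19.1 CPM in wild type 1, 13.2 CPM in the library labelled wild type 2, and 20.8, 19.0 and 41.1 CPM in EedcKO 1, 2 and 3. EedcKO 3 was alone above the rest, and EedcKO 1 and 2 lay near wild type 1 (log2 fold change 0.74 with SE 0.37 and edgeR adjusted p = 0.370). Without EedcKO 3 its log2 fold change was 0.30. Col18a1, the precursor of endostatin and a proteoglycan of vessel and neural basement membranes, stood at 129.8 CPM in wild type 1, 148 CPM in the library labelled wild type 2, and 127, 117 and 143 CPM in EedcKO 1, 2 and 3. Its libraries ranged over 1.27-fold (log2 fold change -0.11 with SE 0.11 and edgeR adjusted p = 0.711).

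Endothelial markers had the order of Col4a1. The 24 genes were all tested, 0 passed with edgeR, 2 had an unadjusted p under 0.05 (Clec14a and Apln, named after their values were seen), and none was at 0 in all libraries. DESeq2 called 0. They summed to 592 CPM in wild type 1, 481 CPM in the library labelled wild type 2, and 569.6, 501 and 702 CPM in EedcKO 1, 2 and 3, and EedcKO 3 was the highest library in 17 of the 24, against 19.7% of all genes tested. Kdr, the receptor of vascular endothelial growth factor, stood at 77.4 CPM in wild type 1, 71.2 CPM in the library labelled wild type 2, and 75.4, 68.3 and 96.8 CPM in EedcKO 1, 2 and 3. Ets1, a transcription factor of vessels, stood at 52.2 CPM in wild type 1, 40.2 CPM in the library labelled wild type 2, and 48.1, 43.8 and 61.0 CPM in EedcKO 1, 2 and 3. Mural cell markers (17 genes, 15 tested, 0 called with edgeR and with DESeq2, 1 at an unadjusted p under 0.05) summed to 391 CPM in wild type 1, 352 CPM in the library labelled wild type 2, and 377, 368 and 427 CPM in EedcKO 1, 2 and 3. That sum was highest in EedcKO 3, and EedcKO 3 was the highest library in 5 of the 15 tested genes, against 19.7% of all genes tested. The most abundant genes of the list were Notch3, a receptor of mural cells (178 CPM in wild type 1, 146 CPM in the library labelled wild type 2, and 180.4, 195 and 228 CPM in EedcKO 1, 2 and 3), and Rgs5, a pericyte regulator of G proteins (52.2 CPM in wild type 1, 25.8 CPM in the library labelled wild type 2, and 43.7, 43.3 and 38.9 CPM in EedcKO 1, 2 and 3). Notch3 alone was 228 of the 427 CPM in EedcKO 3, while Rgs5 was highest in wild type 1. The part of vessel content in the type IV and Col15a1 values was not tested.

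FACIT collagens had lower summed levels in every EedcKO library. Of the 8 tested members (9 in all), 6 lay wholly below both wild-type libraries and 0 wholly above, against 17.4% and 16.4% of all genes tested. The 6 include Col19a1, which entered the test through its wild-type counts alone. The sum of all 9 was 183 CPM in wild type 1, 167 CPM in the library labelled wild type 2, and 136, 102 and 93.1 CPM in EedcKO 1, 2 and 3. Col22a1 alone was 72.8 CPM of that sum in wild type 1 and 28.5 CPM in EedcKO 1, so the sum leans on 1 gene. The lowest sums were those of the male libraries, EedcKO 2 and EedcKO 3. Col19a1 passed the test with edgeR, and DESeq2 called Col22a1 as well. Col14a1, Col16a1 and Col9a1 did not share the pattern.

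Col19a1, a FACIT of basement membrane zones that is made by embryonic muscle and by some neurons, was lower in EedcKO (chromosome 1, 24261890 to 24587472, minus strand). It entered the test through its wild-type counts alone, so a decrease was the only direction open to it. It had 12 counts in wild type 1, then 1, 1 and 1 for EedcKO 1, 2 and 3, with 15 in the library labelled wild type 2. Both wild-type libraries were above the limit of 3 counts that a count of 0 allows, and each EedcKO library was under it. The log2 fold change was -3.60 (SE 0.57, edgeR adjusted p = 0.0231), a fitted value that depends on the prior count. Scaled for library size, summed wild-type counts were 13.5 times those of EedcKO, with a 95% exact counting interval of 4.16 to 69.6. That interval pools the reads of each group, leaves out variation between libraries and is no test of genotype. It was called in 7 of 16 alternatives, and its adjusted p over them ran from 0.0138 to 0.284. The call was kept without wild type 1 and lost without the library labelled wild type 2 and without each EedcKO library. Its neighbour Col9a1, 9205 bases away, had 8 counts in wild type 1, then 28, 2 and 9 for EedcKO 1, 2 and 3, with 9 in the library labelled wild type 2.

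Col22a1, a FACIT known from tissue junctions such as that of muscle and tendon, had the largest fold change among collagens with a mean of at least 5 CPM (chromosome 15, 71795795 to 72034227, minus strand). It had 346 counts in wild type 1, then 137, 148 and 88 for EedcKO 1, 2 and 3, with 201 in the library labelled wild type 2. These counts were 72.8 CPM in wild type 1, 40.8 CPM in the library labelled wild type 2, and 28.5, 30.5 and 18.0 CPM in EedcKO 1, 2 and 3, with wild type 1 far above the rest and the library labelled wild type 2 above each EedcKO library. Means were 56.8 ± 22.6 CPM in wild type (SD, n = 2) and 25.7 ± 6.74 CPM in EedcKO (SD, n = 3), and the gene missed the threshold (log2 fold change -1.14 with SE 0.29 and edgeR adjusted p = 0.0918). DESeq2 called it, and edgeR called it without the library labelled wild type 2, but without wild type 1 its log2 fold change shrank to -0.68 (edgeR adjusted p = 0.151). Over all 16 alternatives its adjusted p ran from 0.00854 to 0.475.

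Type IX collagen, which coats type II fibrils and is made of 3 different chains, lay below wild type in 2 of its genes, without passing the test. Col9a2 stood at 17.7 CPM in wild type 1, 21.5 CPM in the library labelled wild type 2, and 12.3, 9.49 and 10.8 CPM in EedcKO 1, 2 and 3. Col9a3 stood at 42.3 CPM in wild type 1, 48.3 CPM in the library labelled wild type 2, and 38.7, 29.3 and 32.1 CPM in EedcKO 1, 2 and 3. Every EedcKO library was below both wild-type libraries in each gene, and neither passed (log2 fold change -0.85 (SE 0.20) for Col9a2 and -0.44 (SE 0.15) for Col9a3, edgeR adjusted p = 0.0732 and 0.181). Col9a2 was called without wild type 1. The Col9a1 chain, which the cartilage trimer needs, was low beside them: its ratio to Col9a3 in TPM was 0.0303 in wild type 1, then 0.114, 0.0107 and 0.0436 for EedcKO 1, 2 and 3, with 0.0287 in the library labelled wild type 2. The ratio of Col9a2 to Col9a3 in TPM was 0.520 in wild type 1, then 0.395, 0.403 and 0.420 for EedcKO 1, 2 and 3, with 0.554 in the library labelled wild type 2, lower in each EedcKO library than in wild type. Exons of Col9a3 share 6.07% of their length with Tcfl5 on the opposite strand, and the sources used here do not say whether counting used strand.

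Among the other FACIT genes, Col12a1, a collagen of dense connective tissue, stood at 32.0 CPM in wild type 1, 27.6 CPM in the library labelled wild type 2, and 27.1, 10.7 and 13.3 CPM in EedcKO 1, 2 and 3. EedcKO 1 lay just under the library labelled wild type 2, while EedcKO 2 and 3 were far lower (log2 fold change -0.81 with SE 0.36 and edgeR adjusted p = 0.312). Without EedcKO 1 it was called lower, with a log2 fold change of -1.31, but with embryo sex as a term the value was -0.14. The 2 low libraries are the male embryos, and no wild-type library is male. Embryo sex and variation among the EedcKO libraries therefore cannot be told apart. Col20a1 had 30 counts in wild type 1, then 12, 20 and 17 for EedcKO 1, 2 and 3, with 23 in the library labelled wild type 2 (log2 fold change -0.70 with SE 0.36 and edgeR adjusted p = 0.378). Col16a1, a FACIT of fibroblasts and smooth muscle, stood at 6.31 CPM in wild type 1, 15.8 CPM in the library labelled wild type 2, and 16.7, 15.7 and 11.7 CPM in EedcKO 1, 2 and 3, so that wild type 1 stood alone at the bottom (log2 fold change 0.40 with SE 0.37 and edgeR adjusted p = 0.670). Col14a1, which regulates fibril width, had 6 counts in wild type 1, then 22, 6 and 8 for EedcKO 1, 2 and 3, with 19 in the library labelled wild type 2, high in the library labelled wild type 2 and EedcKO 1.

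Col6a5, a chain that can take the place of Col6a3 in type VI collagen, was the other gene called lower (chromosome 9, 105856078 to 105960643, minus strand). It too entered the test through its wild-type counts alone, so a decrease was the only direction open to it. It had 20 counts in wild type 1, then 1, 2 and 1 for EedcKO 1, 2 and 3, with 14 in the library labelled wild type 2. The groups were apart, with each EedcKO library under 3 counts. The log2 fold change was -3.56 (SE 0.57, edgeR adjusted p = 0.0231). Scaled wild-type counts were 12.8 times those of EedcKO (95% exact counting interval 4.55 to 49.5). It was called in 8 of 16 alternatives, with an adjusted p from 0.0109 to 0.311, and the call was kept without either wild-type library and lost without each EedcKO library. Col6a4, the next gene on chromosome 9 and 28810 bases away, had 13 counts in wild type 1, then 1, 2 and 0 for EedcKO 1, 2 and 3, with 7 in the library labelled wild type 2. It was too low to test, and its scaled wild-type counts were 10.005 times those of EedcKO (95% exact counting interval 2.97 to 52.6). The intervals of Col6a5 and Col6a4 pool the reads of each group, leave out variation between libraries and are no test of genotype. Col6a6, 27917 bases on the other side of Col6a5, had 4 counts in wild type 1, then 3, 3 and 6 for EedcKO 1, 2 and 3, with 2 in the library labelled wild type 2, highest in EedcKO 3.

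Network collagens and Col17a1 were marked by the library labelled wild type 2. Col8a2, a type VIII chain of the corneal Descemet membrane and of vessel walls, stood at 7.15 CPM in wild type 1, 18.7 CPM in the library labelled wild type 2, and 13.7, 3.10 and 4.09 CPM in EedcKO 1, 2 and 3. Its partner Col8a1 had 5 counts in wild type 1, then 18, 4 and 1 for EedcKO 1, 2 and 3, with 42 in the library labelled wild type 2. Col17a1, a transmembrane collagen of the hemidesmosomes of basal keratinocytes, had 4 counts in wild type 1, then 7, 4 and 1 for EedcKO 1, 2 and 3, with 31 in the library labelled wild type 2. All 3 genes were highest in the library labelled wild type 2, EedcKO 1 was second in each, and EedcKO 2 and 3 were low. Neither tested gene passed (log2 fold change -0.89 (SE 0.67) for Col8a2 and -1.58 (SE 1.06) for Col8a1, edgeR adjusted p = 0.581 and 0.525). Col17a1 was not tested with all libraries, since only the library labelled wild type 2 had enough counts for the filter. Without wild type 1 it entered the test through that library alone, so a decrease was the only direction open to it. Col10a1, of hypertrophic cartilage, had 1 count, in the library labelled wild type 2.

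Markers of other tissues were compared over the same libraries. The surface epithelium list (14 genes, 7 tested, 0 called with edgeR, 3 at an unadjusted p under 0.05 and 2 called by DESeq2) summed to 29.4 CPM in wild type 1, 272 CPM in the library labelled wild type 2, and 32.9, 23.9 and 16.6 CPM in EedcKO 1, 2 and 3. Krt5, the keratin of basal epidermis, had 0 counts in wild type 1, then 20, 1 and 0 for EedcKO 1, 2 and 3, with 428 in the library labelled wild type 2. Skeletal muscle markers (13 genes, 4 tested, 0 called with edgeR and with DESeq2, 1 at an unadjusted p under 0.05) summed to 10.1 CPM in wild type 1, 84.4 CPM in the library labelled wild type 2, and 19.2, 8.46 and 11.9 CPM in EedcKO 1, 2 and 3. The list of choroid plexus and cortical hem (18 genes, 16 tested, 0 called with edgeR and with DESeq2, 2 at an unadjusted p under 0.05) summed to 231 CPM in wild type 1, 939.7 CPM in the library labelled wild type 2, and 237, 349 and 107 CPM in EedcKO 1, 2 and 3. Erythroid markers, of embryonic red blood cells, summed to 262 CPM in wild type 1, 649 CPM in the library labelled wild type 2, and 436, 297 and 253 CPM in EedcKO 1, 2 and 3. In these 4 lists the library labelled wild type 2 was the highest, while the order of the other libraries differed between lists. Eye markers (12 genes, 5 tested, 0 called with edgeR and with DESeq2, 0 at an unadjusted p under 0.05, Rpe65 and Cryga at 0 in all libraries) were highest in EedcKO 3 instead, with 22.9 CPM in wild type 1, 36.9 CPM in the library labelled wild type 2, and 40.2, 23.7 and 49.3 CPM in EedcKO 1, 2 and 3. Col7a1, of the anchoring fibrils of skin, stood at 8.83 CPM in wild type 1, 10.1 CPM in the library labelled wild type 2, and 10.8, 7.64 and 8.18 CPM in EedcKO 1, 2 and 3, without such a gap (log2 fold change -0.095 with SE 0.26 and edgeR adjusted p = 0.903). The part of skin, muscle, blood or choroid plexus in the collagen values was not tested.

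The library labelled wild type 2 was compared with wild type 1 directly, since its Eed count goes against its label. Of the 35 tested collagens, 7 were at least 2-fold higher in it (5.41% of all genes tested were) and 1, Col4a4, was at least 2-fold lower (1.78% of all genes tested). The 7 were Col8a1, with a ratio of 8.10 (95% interval 3.21 to 26.2), Col14a1 with 3.05 (95% interval 1.17 to 9.34), Col8a2 with 2.61 (95% interval 1.74 to 3.99), Col16a1 with 2.51 (95% interval 1.63 to 3.96), Col6a1 with 2.31 (95% interval 1.62 to 3.33), Col1a1 with 2.29 (95% interval 2.01 to 2.61) and Col6a2 with 2.15 (95% interval 1.62 to 2.88). Col17a1, not tested, had a ratio of 7.47 (95% interval 2.64 to 29.1). Intervals are exact, cover counting error only and compare these 2 libraries, not conditions. Col4a1 went the other way with 0.862 (95% interval 0.798 to 0.931), as did Col22a1 with 0.560 (95% interval 0.468 to 0.669) and Col11a2 with 0.511 (95% interval 0.390 to 0.666). By class, the sum of network collagens had a ratio of 3.34, that of beaded filament collagens 1.75, that of fibrillar collagens 1.21 and that of basement membrane collagens 0.884.

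**Figure D4:**
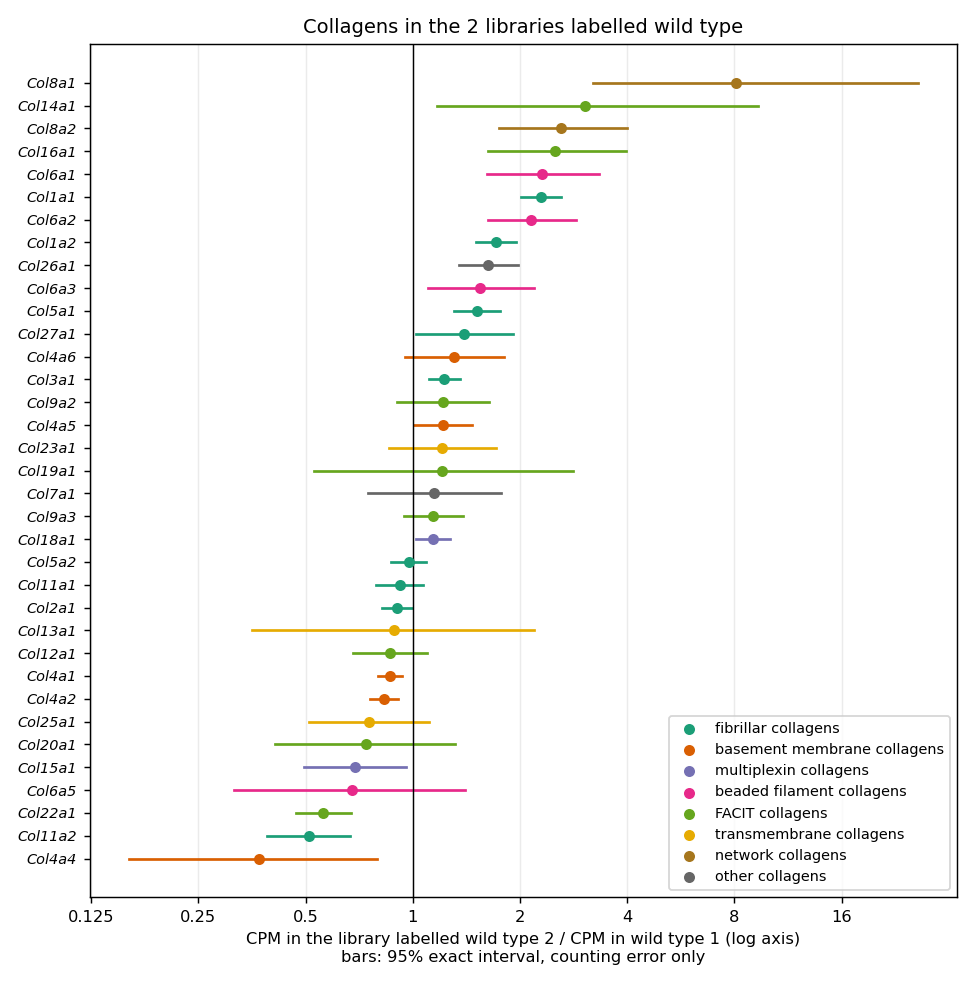
Ratio of the CPM in the library labelled wild type 2 to that in wild type 1 for each tested collagen with at least 10 counts in these 2 libraries (log axis), with 95% exact intervals for counting error and colours by class. Col8a1 is highest at 8.10, Col1a1, Col1a2, Col6a1, Col6a2 and Col6a3 lie above 1, and Col4a1, Col4a2, Col22a1 and Col11a2 lie below 1.

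The order of the libraries was counted over the 35 tested collagens. EedcKO 1 was the highest of the 5 libraries in 14 of them, against 20.1% of all genes tested, and the lowest in 1, against 19.7%. EedcKO 2 was the lowest in 12, against 11.8% of all genes tested, and the highest in 0, against 12.2%. Wild type 1 was the lowest in 12, against 23.1%, and the highest in 6, against 24.7%. The library labelled wild type 2 was the highest in 9, against 23.3%, and the lowest in 4, against 27.7%. EedcKO 3 was the highest in 6, against 19.7%, and the lowest in 6, against 17.7%.

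Ratios between chains were steady in some pairs and not in others. The ratio of Col1a1 to Col1a2 in TPM was 1.69 in wild type 1, then 2.11, 1.74 and 1.80 for EedcKO 1, 2 and 3, with 2.25 in the library labelled wild type 2, where the type I trimer holds 2 Col1a1 chains and 1 Col1a2 chain. The ratio of Col6a1 to Col6a2 was 1.20 in wild type 1, then 1.25, 1.16 and 1.24 for EedcKO 1, 2 and 3, with 1.28 in the library labelled wild type 2, a 1.11-fold range where Col6a1 ranged over 2.50-fold and Col6a2 over 2.39-fold in CPM. The ratio of Col4a5 to Col4a6 was 3.44 in wild type 1, then 3.02, 3.10 and 3.36 for EedcKO 1, 2 and 3, with 3.20 in the library labelled wild type 2. Other pairs moved more: the ratio of Col5a1 to Col5a2 by 1.65-fold, that of Col11a1 to Col11a2 by 1.80-fold, and those of the low-count chains Col8a1 to Col8a2 and Col9a1 to Col9a3 by 9.13-fold and 10.7-fold. The ratio of Col2a1 to Col1a1 was 1.99 in wild type 1, then 0.812, 2.25 and 1.59 for EedcKO 1, 2 and 3, with 0.786 in the library labelled wild type 2, low in the library labelled wild type 2 and in EedcKO 1, where type I collagen was high.

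Transmembrane collagens and the rest did not pass. Col23a1 stood at 13.3 CPM in wild type 1, 16.02 CPM in the library labelled wild type 2, and 16.7, 13.2 and 18.6 CPM in EedcKO 1, 2 and 3. Col25a1, a collagen of motor neuron development and the precursor of an amyloid plaque component, stood at 13.5 CPM in wild type 1, 10.1 CPM in the library labelled wild type 2, and 17.9, 7.43 and 11.5 CPM in EedcKO 1, 2 and 3. Col26a1 stood at 37.4 CPM in wild type 1, 61.1 CPM in the library labelled wild type 2, and 58.3, 40.7 and 51.8 CPM in EedcKO 1, 2 and 3. Their log2 fold changes were 0.14 (SE 0.21), 0.056 (SE 0.37) and 0.027 (SE 0.23) (edgeR adjusted p = 0.808, 0.964 and 0.974), and in each the groups overlapped. Col13a1, a transmembrane collagen of the neuromuscular junction, had 12 counts in wild type 1, then 6, 2 and 15 for EedcKO 1, 2 and 3, with 11 in the library labelled wild type 2 (log2 fold change -0.58 with SE 0.69 and edgeR adjusted p = 0.750), and Col28a1, of peripheral nerve, had 0 to 5 counts per library and was not tested.

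Among genes that make, bind, cut or sense collagen, Adamts3 rose in EedcKO. Over 6 lists with 108 genes, 95 were tested and 1 passed (1.05%, against 3.20% of all genes tested). It was Adamts3, a protease that cuts procollagen and activates the lymphatic growth factor Vegfc. Its libraries stood at 10.5 CPM in wild type 1, 10.1 CPM in the library labelled wild type 2, and 19.999, 32.8 and 29.0 CPM in EedcKO 1, 2 and 3 (log2 fold change 1.40 with SE 0.24 and edgeR adjusted p = 0.0289), with no overlap. The call was lost without EedcKO 2, without EedcKO 3, with limma-voom, with embryo sex as a term, with the replicate block and in limma on unfiltered TPM, where its adjusted p was 0.0579 to 0.248. Its log2 fold change in these fits was 0.95 with embryo sex and 1.25 to 1.36 in the others. It was 1 of 13 tested genes for trimming and crosslinking.

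Of 21 tested genes for collagen folding 0 passed with edgeR and with DESeq2, and 2 had an unadjusted p under 0.05 (median log2 fold change 0.065). Their sum was within 1.05-fold over the libraries, and their most abundant members were the hydroxylase subunit P4hb (218 CPM in wild type 1, 227 CPM in the library labelled wild type 2, and 206, 223 and 243 CPM in EedcKO 1, 2 and 3) and the coat protein Sec23a (161 CPM in wild type 1, 155 CPM in the library labelled wild type 2, and 161, 160.2 and 147 CPM in EedcKO 1, 2 and 3). The specific chaperone of collagen, Serpinh1, named after its value was seen, stood at 162 CPM in wild type 1, 154 CPM in the library labelled wild type 2, and 147, 136 and 146 CPM in EedcKO 1, 2 and 3.

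Of 21 tested basement membrane partners 0 passed with edgeR, 7 had an unadjusted p under 0.05 (17.2% of all genes tested did) and DESeq2 called 2 (the laminin chain Lamb1 and the matrix protein Frem2), and 10 were highest in EedcKO 3, against 19.7% of all genes tested. Agrn, the proteoglycan agrin, stood at 636 CPM in wild type 1, 460.4 CPM in the library labelled wild type 2, and 565, 532 and 553 CPM in EedcKO 1, 2 and 3. Dag1, the receptor dystroglycan, stood at 203 CPM in wild type 1, 190.3 CPM in the library labelled wild type 2, and 179.8, 184 and 198 CPM in EedcKO 1, 2 and 3. Neither differed between the groups beyond its spread (log2 fold change 0.0039 (SE 0.15) and -0.070 (SE 0.089), edgeR adjusted p = 0.993 and 0.767).

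Of 19 tested matrix proteins that bind collagen 0 passed with edgeR and with DESeq2, and 3 had an unadjusted p under 0.05. The most abundant were the proteoglycan Vcan (469 CPM in wild type 1, 289 CPM in the library labelled wild type 2, and 451, 341 and 306 CPM in EedcKO 1, 2 and 3) and fibronectin, Fn1 (274 CPM in wild type 1, 253 CPM in the library labelled wild type 2, and 331, 311 and 362 CPM in EedcKO 1, 2 and 3), whose adjusted p with edgeR was 0.139. Of 10 tested collagen receptors 0 passed with edgeR and with DESeq2, and 0 had an unadjusted p under 0.05. Adgrg1, the type III collagen receptor of radial glia, stood at 317 CPM in wild type 1, 289 CPM in the library labelled wild type 2, and 265, 282 and 311 CPM in EedcKO 1, 2 and 3 (log2 fold change -0.084 with SE 0.11 and edgeR adjusted p = 0.768), and Ddr1, a receptor kinase for collagens, at 303 CPM in wild type 1, 286 CPM in the library labelled wild type 2, and 256, 273 and 283 CPM in EedcKO 1, 2 and 3 (log2 fold change -0.12 with SE 0.094 and edgeR adjusted p = 0.592). Of 11 tested genes for degradation 0 passed with edgeR and with DESeq2 and 0 had an unadjusted p under 0.05, the most abundant being the membrane protease Mmp15 (132 CPM in wild type 1, 141 CPM in the library labelled wild type 2, and 119, 120.1 and 153 CPM in EedcKO 1, 2 and 3) and the inhibitor Timp2 (118 CPM in wild type 1, 138 CPM in the library labelled wild type 2, and 103, 112 and 115 CPM in EedcKO 1, 2 and 3).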

How the data were processed

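Polyadenylated RNA of 5 forebrain samples at E12.5 was sequenced with BGISEQ-500 libraries, per the labels' protocols. The aligner HISAT2 2.2.0 and the build mm10 are listed, per the submitters' processing notes. The sources used here name no counter, strand setting or annotation. The authors deposited whole-number counts for 56196 rows and TPM for 24926 rows. The 28277 rows without a symbol (2.01% to 2.16% of the counts) stayed out of library sizes and tests, and 27 symbols had been turned into dates. The highest count, 6396 for Map1b, was 0.130% of its library.

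Counts were tested in R 4.3.3 with edgeR 4.0.16 (filterByExpr, TMM, glmQLFit with robust estimation, glmQLFTest on the group), with Benjamini-Hochberg adjustment over 13989 genes. The filter asked for about 2.06 CPM in 2 libraries. A standard error is the log2 fold change over the square root of F. The fit was tested on simulated data. Exact 95% intervals describe counting error alone, as no molecular identifiers mark the reads. Coordinates are from GENCODE M21 (mm10), 1-based, and promoters from RefSeq.

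Named collagens had a mean of at least 5 CPM or passed the threshold. From each list up to 3 called members, or else the 2 most abundant, were named, and all other genes named were chosen after their values were seen. The members and lists were chosen with earlier results of these data known. Alternatives were RLE factors, library size alone, DESeq2 1.42.0, limma 3.58.1 (voom, and trend on log2 of TPM plus 1 or 0.1), other count filters, embryo sex, the replicate number and each library left out.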

Additional observations from a re-analysis of the deposited data

How the results depend on the processing

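Of 30 named collagens, 12 kept the sign of their log2 fold change in all 16 alternatives and 18 changed it in some. A fit that leaves 1 wild-type library assumes that it varies like the other group. The replicate numbers are a number only (correlation of deviations -0.041 for number 1 and 0.13 for number 2 over 13989 genes). Number 3 occurs only in EedcKO, so a block on the number takes EedcKO 3 out of the genotype effect. With the replicate block, 0 collagens, 0 related genes and 0 of all genes passed with edgeR, and 5 collagens and 2169 genes had an unadjusted p under 0.05. With embryo sex as a term the counts past the threshold were 0, 0 and 0, and 5 collagens and 1611 genes had an unadjusted p under 0.05. In that fit the genotype effect rests on EedcKO 1 against the wild-type libraries, as no wild-type library is male. Against 448 genes called in all, DESeq2 called 679, with 4 collagens and 3 related genes. The fits on log2(TPM + 1), log2(TPM + 0.1) and unfiltered log2(TPM + 1) called 0 collagens and 291, 278 and 174 genes in all, and the last called 0 related genes. Related genes called numbered 2 by library size alone, 0 with limma-voom and 3 without a count filter. Leaving out each library in turn gave 0 to 5 collagens, 0 to 6 related genes and 0 to 1012 genes in all.

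Scaled by library size alone, the ratio of the library labelled wild type 2 to wild type 1 was 1.31 for fibrillar, 0.955 for basement membrane and 1.19 for all collagens, and in TPM it was 1.03 for FACIT collagens. Log2 fold changes turned sign as follows. With embryo sex as a term, that of Col11a1 was 0.086, Col5a2 0.31, Col7a1 0.19 and Col8a2 0.089. With the replicate block, that of Col11a2 was 0.050, Col4a1 -0.035, Col4a2 -0.10 and Col5a2 0.0028, and the block changed no other sign. That of Col11a2 was 0.047 with limma-voom, 0.042 on log2(TPM + 1), filtered or not, and 0.048 on log2(TPM + 0.1). That of Col25a1 was -0.019 with limma-voom and -0.010 on log2(TPM + 0.1). Leaving out each library in turn, the ranges that crossed 0 were Col1a1 -0.24 to 1.01, Col1a2 -0.032 to 0.81, Col5a1 -0.18 to 0.44, Col5a2 -0.22 to 0.11, Col11a2 -0.44 to 0.51, Col6a1 -0.21 to 1.02, Col6a2 -0.14 to 0.99, Col4a1 -0.037 to 0.22, Col4a2 -0.11 to 0.17, Col4a5 -0.074 to 0.23, Col4a6 -0.053 to 0.36, Col16a1 -0.13 to 1.22, Col23a1 -0.0034 to 0.29, Col25a1 -0.33 to 0.31, Col26a1 -0.30 to 0.43 and Col7a1 -0.27 to 0.015. The cause was not tested. Depth limits the low members most, since 3 counts are 0.609 to 0.631 CPM.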
